A study of Mus musculus with 9 samples.

Results

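Collagen genes were followed in the ovaries of mice with 2, 1 or no intact copies of Taf4b as labelled. A collagen gene was any gene whose symbol in the deposited annotation is Col, a number, a and a number. This rule found 40 of 22505 gene symbols on the array, each measured by 1 of its 28266 probe sets, and it used no difference between genotypes. They fell into 11 fibrillar genes, 6 basement membrane genes, 3 type VI genes and 20 others. The mice were 3 weeks old, with 3 wild-type mice, 3 TAF4b heterozygotes and 3 mice labelled TAF4b knockout. The sources used here do not give the strain or the exact allele. Total RNA was extracted with Trizol, and 300 ng from each mouse were labelled for its own GeneChip Mouse Gene 1.0 ST array. Replicates are therefore separate mice. Values are the authors' linear RMA intensities, and differences are on the log2 scale with limma's standard error.

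Collagens are extracellular matrix proteins whose chains wind around each other into a rope-like helix built on repeats that begin with glycine. Fibrillar collagens such as types I and III give tissue its tensile strength, and type V is built into the same fibrils. Type IV collagen forms the sheet-like network of basement membranes, including the basal lamina that surrounds the granulosa cells of each follicle. Type VI collagen forms beaded microfilaments close to cells in loose connective tissue. In the ovary, the stroma and the thecal layers around follicles are the collagen-rich compartments, and follicle growth and ovulation require this matrix to be remodelled. TAF4b belongs to the TFIID complex, which helps RNA polymerase II to start at promoters, and is most abundant in gonads.

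The 9 arrays had median intensities between 124 and 127. Heterozygote 1 stood somewhat apart, correlating at 0.989 to 0.992 with the other arrays over all probe sets tested, against 0.993 to 0.998 among those others. The Taf4b readings of the genotypes overlapped. Its intensities were 494, 635 and 723 in wild type, 456, 595 and 574 in heterozygotes and 332, 626 and 403 in the arrays labelled knockout. The library labelled knockout 2 thus read 101% of the wild-type mean, which goes against its label. On the log2 scale Taf4b differed by -0.48 (SE 0.23) between labelled knockout and wild type (exact permutation p = 0.2, two-sided, n = 3 against 3, where 0.1 is the smallest p possible). Without knockout 2 this difference was -0.74 (adjusted p = 0.151, limma), and without knockout 1 it was -0.28. It differed by -0.18 between heterozygote and wild type and by -0.30 between labelled knockout and heterozygote (exact permutation p = 0.4 each), the latter -0.56 without knockout 2. The sources used here do not say whether the probe set falls inside the deleted stretch, and one outside it would check nothing.

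No collagen gene passed an adjusted p of 0.05 in limma in any of the 3 comparisons of genotypes, but the major interstitial collagens lay in 1 order on average. Among the 40, the genes of types I, III, V and VI read lowest in heterozygotes, intermediate in wild type and highest in the arrays labelled knockout. The order was not particular to these types. The means of Col4a1, Col4a2, Col4a4, Col4a6, Col8a1, Col8a2, Col12a1 and Col18a1 kept it too. Col6a4 and Col6a5, listed under other symbols, did not keep this order. Between labelled knockout and heterozygote, 0 of 40 were called (0.0239% of all probe sets tested), while 15 lay higher at an unadjusted p under 0.05 (7.71% of all probe sets) and 2 lay lower (6.57%). Between labelled knockout and wild type, 0 were called (0.0757% of all probe sets), 8 lay higher at an unadjusted p under 0.05 (4.89%) and 1 lay lower (5.77%). Between heterozygote and wild type, 0 were called (0% of all probe sets), 1 lay higher at an unadjusted p under 0.05 (2.71%) and 4 lay lower (3.04%). The comparisons share arrays, so their counts are not independent. Ovarian RNA is a mixture, and fewer cells of a type cannot be told apart from less RNA per cell.

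The arrays of labelled knockouts all lay above those of heterozygotes for 13 of the 40 genes (8.08% of all probe sets) and all below for 2 (8.12%). Against wild type, the labelled knockout arrays all lay above for 8 genes (6.51%) and all below for 1 (7.77%). Heterozygote arrays all lay above wild type for 3 genes (4.13%) and all below for 4 (6.43%). The share of all probe sets in which 1 genotype stood clear of both others was not computed. The log2 difference was above 0 for 25 of the 40 genes between labelled knockout and heterozygote (45.4% of all probe sets), for 33 between labelled knockout and wild type (48.3%) and for 20 between heterozygote and wild type (51.3%). Over the 40 genes the median log2 difference was 0.04 between labelled knockout and heterozygote, where the median of all probe sets was -0.01. It was 0.06 between labelled knockout and wild type, against -0.0040 over all probe sets, and 0.0058 between heterozygote and wild type, against 0.0030. All 40 genes were brighter on average than the dimmest 25% of the probe sets tested. In 22 of the 40 genes at least 1 pair of arrays held the same intensity, as in 55.2% of all probe sets tested.

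**Figure D1:**
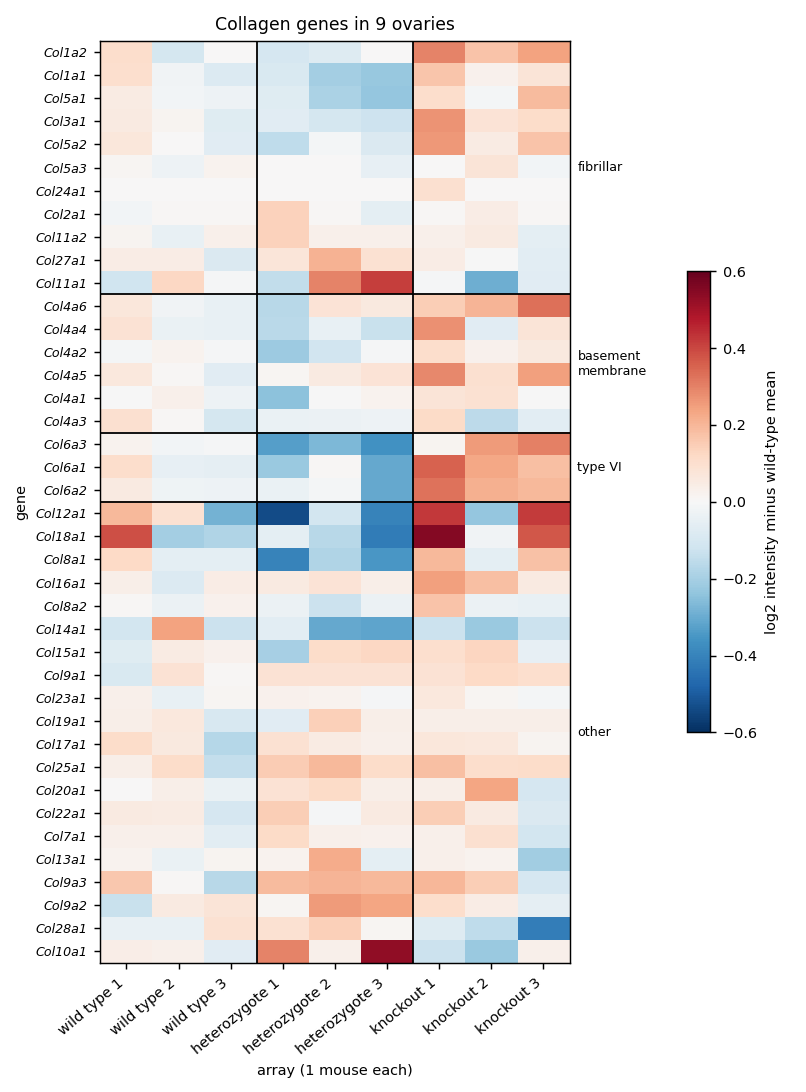
Log2 intensity of the 40 collagen genes minus each gene's wild-type mean, with 1 column per array (1 mouse each) and genes grouped by class and ordered by the difference between labelled knockout and heterozygote. Red is above and blue below the wild-type mean; the 3 type VI genes and the upper 5 fibrillar genes are mostly blue in heterozygotes and red in the labelled knockouts, while most other genes are pale.

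Type VI collagen had the largest median difference of the 4 classes between labelled knockout and heterozygote, 0.43. Its chains are encoded by Col6a1 and Col6a2, which neighbour each other on chromosome 10, and Col6a3, which lies on chromosome 1. The sequence before each gene is shown because the RNA levels of these genes differed in the same directions. Each is 150 bases of GRCm38.p6, minus strand, ending next to the annotated gene, at chr10:76726045-76726194, chr10:76623631-76623780 and chr1:90844002-90844151. Capitals would mark the CCAAT box, the GC box (GGGCGG) or the TATA box (TATAAA) on either strand, and none of these motifs occurs in these 150 bases. In the 250 bases used for the counts below, however, Col6a2 has GGGCGG.
Col6a1: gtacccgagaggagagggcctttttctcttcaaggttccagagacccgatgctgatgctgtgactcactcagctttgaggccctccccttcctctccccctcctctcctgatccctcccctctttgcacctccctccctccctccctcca
Col6a2: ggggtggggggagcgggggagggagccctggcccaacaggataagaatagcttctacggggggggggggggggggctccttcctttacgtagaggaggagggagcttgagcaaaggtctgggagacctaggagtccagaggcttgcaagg
Col6a3: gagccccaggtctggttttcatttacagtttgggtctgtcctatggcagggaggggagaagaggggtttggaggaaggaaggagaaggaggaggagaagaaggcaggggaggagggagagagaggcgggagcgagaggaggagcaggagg

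Col6a3, whose long chain completes the type VI monomer, read 1064, 1037 and 1043 in wild type, 834, 871 and 815 in heterozygotes and 1061, 1251 and 1290.4 in labelled knockouts. The heterozygote arrays lay below all the others without overlap, while knockout 1 fell within the wild-type range. Means were 1048 ± 14.1, 839.8 ± 28.3 and 1201 ± 123 (SD, n = 3 mice each). Between labelled knockout and heterozygote the difference was 0.51 (SE 0.08), a fold of 1.43 (adjusted p = 0.0756, limma), the smallest adjusted p of any collagen gene. Leaving out the dimmest 25% of probe sets brought this adjusted p to 0.0497. Leaving out 1 array at a time gave adjusted p-values from 0.0506 to 0.240 (limma) and differences from 0.46 to 0.60. Without heterozygote 1 the difference was 0.51, and without knockout 2 it was 0.48. Between heterozygote and wild type it was -0.32 (SE 0.08, adjusted p = 0.815, limma), and between labelled knockout and wild type 0.19 (SE 0.08, adjusted p = 0.411, limma).

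Col6a1, which encodes the first of the shorter chains, read 1553, 1397 and 1393 in wild type, 1240.4, 1454 and 1168 in heterozygotes and 1847, 1696 and 1639.6 in labelled knockouts. The labelled knockout arrays lay above all 6 others, and heterozygote 2 lay within the wild-type range. Its difference between labelled knockout and heterozygote was 0.43 (SE 0.09, adjusted p = 0.143, limma), against wild type 0.26 (SE 0.09, adjusted p = 0.368), and between heterozygote and wild type -0.17 (SE 0.09). Col6a2, the other shorter chain, read 937, 885 and 884 in wild type, 878, 893 and 729 in heterozygotes and 1131, 1046 and 1031 in labelled knockouts. Again the labelled knockouts did not overlap the other genotypes. The corresponding differences were 0.36 (SE 0.08, adjusted p = 0.159, limma), 0.24 (SE 0.08, adjusted p = 0.343) and -0.12 (SE 0.08). As percentages of the wild-type mean, the heterozygote means of Col6a1, Col6a2 and Col6a3 were 88.9%, 92.4% and 80.1%, and those of the labelled knockouts 119%, 119% and 115%. In the authors' deposited tables, which test linear intensities, p was 0.0262, 0.00942 and 0.0990 for wild type against knockout and 0.187, 0.282 and 3.34e-04 for wild type against heterozygote.

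**Figure D2:**
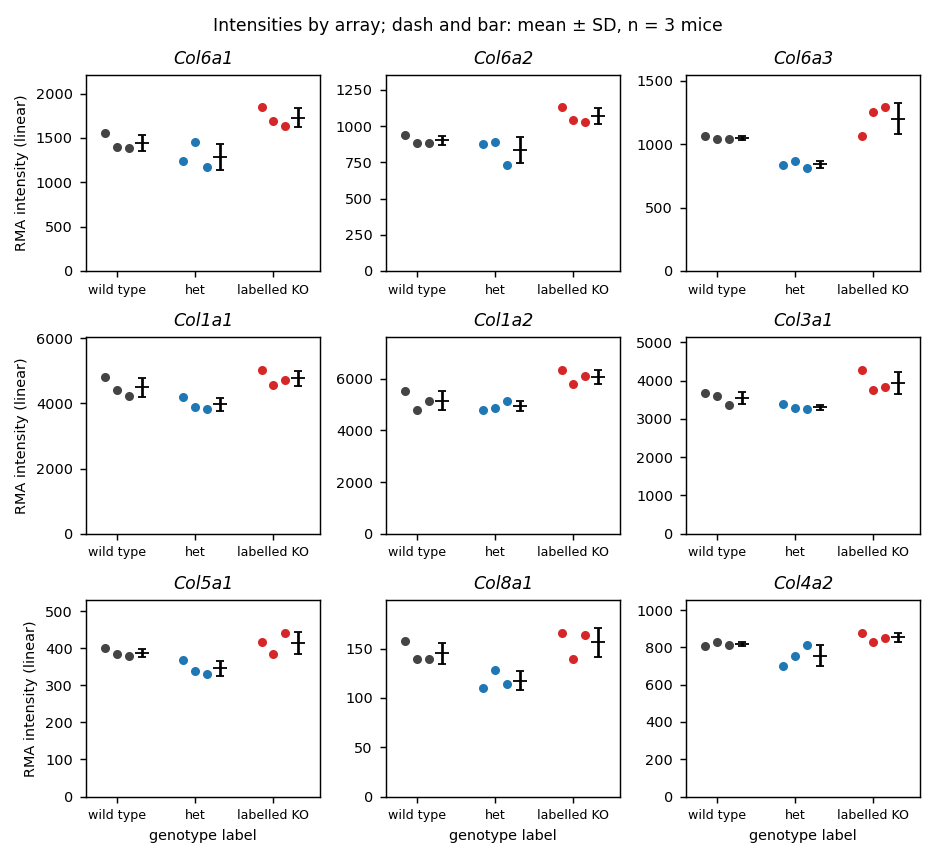
RMA intensity (linear, each axis from 0) of 9 collagen genes by genotype label, with 1 point per array and the mean ± SD of 3 mice beside it. For Col6a1 and Col6a2 the labelled knockout points lie above all others, and for Col6a3 and Col8a1 the heterozygote points lie below all others.

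Among the 11 fibrillar genes, 5 read higher in all labelled knockouts than in all heterozygotes (8.08% of all probe sets). These were Col1a1, Col1a2, Col3a1, Col5a1 and Col5a2. In the other direction, 1 gene, Col27a1, read lower without overlap (8.12%). The remaining type V gene, Col5a3, overlapped, with a difference of 0.04 (SE 0.05). Of the type I genes, Col1a1 encodes the more numerous chain of the molecule and Col1a2 the other. Col1a1 read 4814, 4423 and 4239 in wild type, 4205, 3892 and 3831 in heterozygotes and 5026, 4559 and 4728 in labelled knockouts. Heterozygotes lay below both other genotypes, and wild type and labelled knockouts overlapped. The difference between labelled knockout and heterozygote was 0.26 (SE 0.07, adjusted p = 0.185, limma), between heterozygote and wild type -0.18 (SE 0.07, adjusted p = 0.815), and between labelled knockout and wild type 0.09 (SE 0.07). Col1a2 read 5542, 4779.9 and 5150.3 in wild type, 4807, 4882 and 5151 in heterozygotes and 6338, 5796 and 6092 in labelled knockouts. Here it was the labelled knockouts that stood clear of both other genotypes, while heterozygotes fell within the wild-type range. Its differences, in the same order, were 0.30 (SE 0.07, adjusted p = 0.158, limma), -0.06 (SE 0.07) and 0.24 (SE 0.07, adjusted p = 0.260).

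Col3a1, the gene of type III collagen, which accompanies type I in soft tissue, read 3681, 3588 and 3371 in wild type, 3383, 3293 and 3249.6 in heterozygotes and 4279, 3747 and 3828 in labelled knockouts. The labelled knockouts lay above every other array. The difference was 0.25 from heterozygotes (SE 0.06, adjusted p = 0.181, limma) and 0.15 from wild type (SE 0.06, adjusted p = 0.444), the latter 0.10 without knockout 1. Col5a1 and Col5a2 encode type V chains, which set fibril diameter. Col5a1 read 400.1, 383 and 379 in wild type, 368, 339.6 and 329 in heterozygotes and 417, 384 and 442 in labelled knockouts, so heterozygotes again lay below all the rest. Col5a2 read 299.6, 287 and 273 in wild type, 258, 284 and 269.8 in heterozygotes and 342, 296 and 322 in labelled knockouts. Between labelled knockout and heterozygote these genes differed by 0.26 (SE 0.07, adjusted p = 0.190, limma) and 0.24 (SE 0.07, adjusted p = 0.213), with no overlap for either. Col5a1 differed by -0.17 between heterozygote and wild type (SE 0.07, adjusted p = 0.815, limma).

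The sequences before Col1a2 and Col3a1 are shown because the labelled knockout arrays stood clear of both other genotypes for these genes. They are 150 bases of GRCm38.p6, plus strand, at chr6:4505468-4505617 and chr1:45311388-45311537, ending next to the annotated gene. Capitals mark CCAAT in the first and TATAAA in the other.
Col1a2: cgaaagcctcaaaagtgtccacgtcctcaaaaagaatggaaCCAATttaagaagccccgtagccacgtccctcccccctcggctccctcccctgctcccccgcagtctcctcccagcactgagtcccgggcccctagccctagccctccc
Col3a1: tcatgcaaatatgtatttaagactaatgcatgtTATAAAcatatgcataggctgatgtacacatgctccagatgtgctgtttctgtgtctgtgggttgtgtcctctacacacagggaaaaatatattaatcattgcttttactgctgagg
RefSeq windows were found for 32 of the 40 collagen genes. In the 250 bases before the start, CCAAT occurred on either strand in 12 of these genes (37.5%, against 33.8% of all 32851 windows), GGGCGG in 18 (56.2% against 32.7%) and TATAAA in 5 (15.6% against 12.4%). A collagen gene counted if any of its windows held the motif, while the share over all windows counts each window once. The percentages are therefore unlike measures, and a gene with several windows had more chances to count. A match is a description of letters and shows no binding.

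The other fibrillar genes were Col2a1, Col5a3, Col11a1, Col11a2, Col24a1 and Col27a1, of which types II and XI are best known from cartilage. Their differences between labelled knockout and heterozygote ran from -0.31 to 0.04, and none had an unadjusted p under 0.05 in any comparison. Col27a1 read 206, 206 and 188 in wild type, 210.1, 231 and 213 in heterozygotes and 206, 199 and 191 in labelled knockouts. Its heterozygotes lay above all other arrays, with a difference of 0.12 from wild type (SE 0.06, adjusted p = 0.815, limma) and of -0.13 between labelled knockout and heterozygote (SE 0.06, adjusted p = 0.377). Col11a1, chosen after its values were seen, had its highest readings in heterozygotes 2 and 3, 741 and 806, but 545 in heterozygote 1. Over all 11 fibrillar genes the median difference between labelled knockout and heterozygote was 0.04, with 7 above 0.

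Among basement membrane collagens, the genes on the X chromosome and Col4a2 read higher in all labelled knockouts than in any other array. Of all probe sets, 8.08% read higher in all labelled knockouts than in all heterozygotes, and 6.51% than in all wild types. Type IV chains are encoded by 6 genes in pairs that lie head to head: Col4a1 and Col4a2 on chromosome 8, Col4a3 and Col4a4 on chromosome 1, and Col4a5 and Col4a6 on the X. Col4a5 read 237, 228 and 216 in wild type, 228, 236 and 240.5 in heterozygotes and 277, 243 and 269 in labelled knockouts. Col4a6 read 126, 118 and 116 in wild type, 107, 127 and 125 in heterozygotes and 133, 138 and 150.5 in labelled knockouts. For both genes the labelled knockouts lay above all 6 other arrays, and heterozygotes overlapped wild type. Col4a5 differed from wild type by 0.21 (SE 0.06, adjusted p = 0.292, limma) and from heterozygotes by 0.16 (SE 0.06, adjusted p = 0.318). Col4a6 differed by 0.23 from each (SE 0.08, adjusted p = 0.370 and 0.264, limma), and by 0.15 from heterozygotes without heterozygote 1.

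Col4a1 and Col4a2 encode the chains of the network found in nearly all basement membranes. Col4a1 read 893, 912 and 875 in wild type, 752, 892 and 906 in heterozygotes and 943, 952 and 893 in labelled knockouts, and the genotypes overlapped. Col4a2 read 809, 828 and 812 in wild type, 701, 753 and 812 in heterozygotes and 878, 831 and 850.1 in labelled knockouts. Its labelled knockouts lay above every other array, by 0.18 over heterozygotes (SE 0.06, adjusted p = 0.266, limma) and 0.06 over wild type (SE 0.06). Heterozygote 1 gave the lowest reading of both genes, and over fits that left out 1 array the Col4a2 difference from heterozygotes ran from 0.12 to 0.23. Col4a4 read 295, 270.2 and 269 in wild type, 249, 269.6 and 253 in heterozygotes and 337, 265 and 293 in labelled knockouts, with a difference of 0.21 between labelled knockout and heterozygote (SE 0.09, adjusted p = 0.337, limma) that was 0.12 without knockout 1. Col4a3 differed by no more than 0.04 in any comparison. For the 6 genes the median difference between labelled knockout and heterozygote was 0.17, with all 6 above 0.

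**Figure D3:**
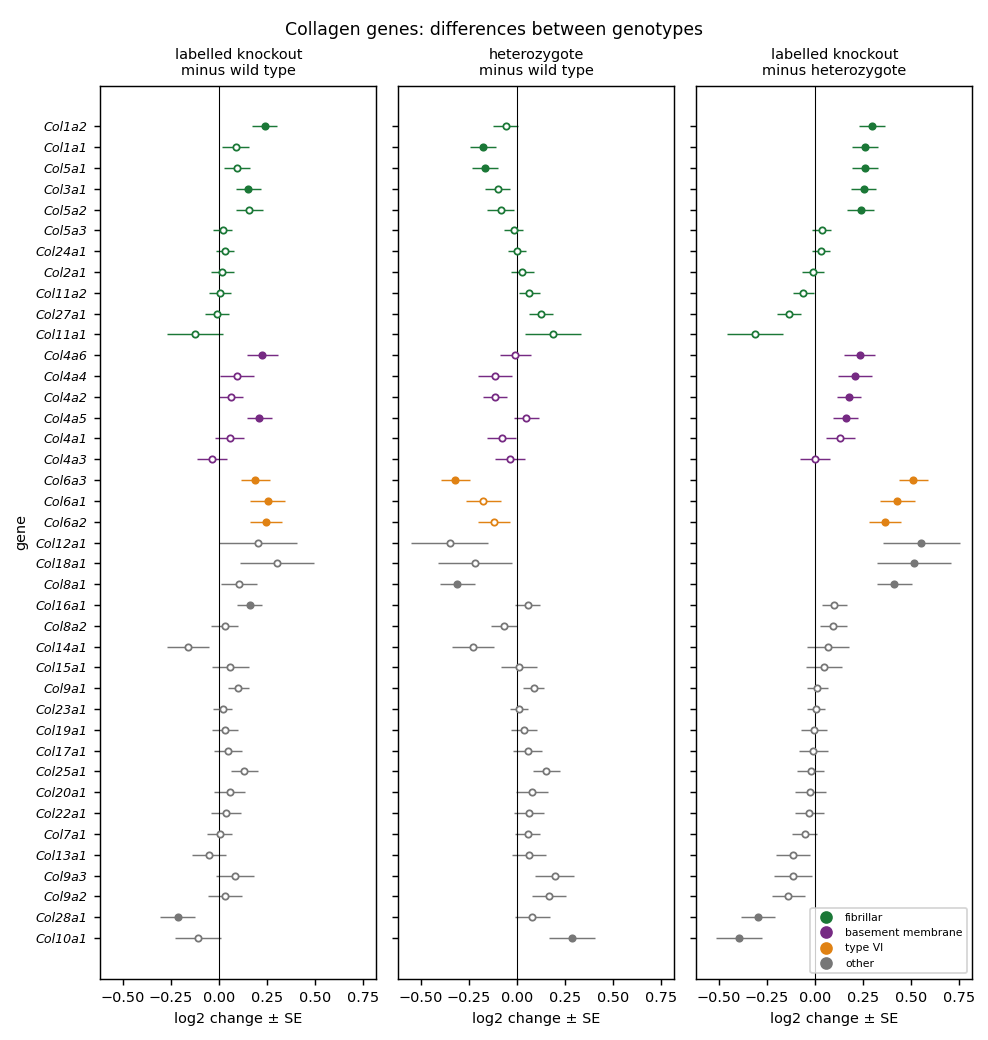
Log2 difference ± SE (limma, 9 arrays) of each collagen gene in 3 comparisons of genotypes, coloured by class; filled points have an unadjusted p under 0.05 and open points do not. In the right panel 15 filled points lie above 0 and 2 below, and no gene passed an adjusted p of 0.05.

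Of the 20 other collagens, Col8a1 was the clearest. It encodes a network-forming chain known from vessel walls and from the membrane under the corneal endothelium. Its intensities were 157, 139 and 139 in wild type, 109.8, 128 and 114 in heterozygotes and 166, 139 and 164 in labelled knockouts. Heterozygotes lay below all other arrays, and knockout 2 read like wild types 2 and 3. The difference between labelled knockout and heterozygote was 0.41 (SE 0.09, adjusted p = 0.151, limma). Without knockout 2 it was 0.50, and the adjusted p was 0.0499. The difference between heterozygote and wild type was -0.31 (SE 0.09, adjusted p = 0.815, limma). The sequence before Col8a1, at chr16:57754738-57754887 on the minus strand of GRCm38.p6, is shown for its 3 copies of GGGCGG, read here on the opposite strand and set in capitals.
Col8a1: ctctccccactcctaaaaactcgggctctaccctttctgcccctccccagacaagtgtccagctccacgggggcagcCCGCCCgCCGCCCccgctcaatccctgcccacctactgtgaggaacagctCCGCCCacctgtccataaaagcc

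Col18a1 and Col15a1 encode collagens of basement membrane zones that carry long sugar chains. Col18a1, the source of the fragment endostatin, read 524, 348 and 354 in wild type, 385, 357 and 300.2 in heterozygotes and 587, 395 and 520.1 in labelled knockouts. Wild type 1 and knockout 2 stood away from the rest of their groups, and the difference of 0.52 between labelled knockout and heterozygote had an SE of 0.19 (adjusted p = 0.289, limma). Col15a1 read 485, 529 and 519.7 in wild type, 445, 552 and 557 in heterozygotes and 549, 559 and 493 in labelled knockouts, and all genotypes overlapped. Col12a1, a collagen that decorates fibril surfaces and was chosen after its values were seen, read 482, 449 and 346 in wild type, 291, 391 and 319 in heterozygotes and 566, 359 and 564 in labelled knockouts. Knockout 2 lay among the heterozygotes for this gene, and the difference of 0.55 (SE 0.20, adjusted p = 0.282, limma) was 0.77 without it. Col16a1, another fibril-associated collagen, read 238, 219 and 239 in wild type, 240.5, 246 and 238 in heterozygotes and 275, 263 and 240.5 in labelled knockouts, a difference of 0.16 from wild type (SE 0.06, adjusted p = 0.415, limma).

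A pair of dim genes went the other way. Col28a1 read 64.1, 64.1 and 70.3 in wild type, 70.4, 72.9 and 66.6 in heterozygotes and 62.7, 59.5 and 49.6 in labelled knockouts, which lay below all other arrays. It differed by -0.29 from heterozygotes (SE 0.09, adjusted p = 0.229, limma) and by -0.21 from wild type (SE 0.09, adjusted p = 0.450), which were -0.20 and -0.11 without knockout 3. Col10a1, known from the growth plate of bone, read 45.0, 44.7 and 41.7 in wild type, 53.8, 44.7 and 63.2 in heterozygotes and 40.1, 37.5 and 44.7 in labelled knockouts. Its difference of -0.39 between labelled knockout and heterozygote (SE 0.12, adjusted p = 0.229, limma) came with 1 value shared by an array of each genotype. Col25a1, a membrane-anchored collagen, read 102, 108 and 90.5 in wild type, 111, 114 and 108 in heterozygotes and 113, 108 and 108 in labelled knockouts. It differed by 0.15 between heterozygote and wild type (SE 0.07, adjusted p = 0.815, limma).

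The remaining members of this class were Col7a1, Col8a2, Col9a1, Col9a2, Col9a3, Col13a1, Col14a1, Col17a1, Col19a1, Col20a1, Col22a1 and Col23a1. None had an unadjusted p under 0.05 in any comparison. Over the 20 genes the median difference was -0.0050 between labelled knockout and heterozygote, with 9 above 0, and 0.06 between heterozygote and wild type, with 15 above 0. The difference between classes was not tested.

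Chain genes whose products assemble together were compared across the 9 arrays in 5 pairs, chosen after values were seen. Col6a1 and Col6a2 ranked the 9 arrays identically (Spearman's rho = 1.0, exact permutation p = 5.51e-06), with Pearson's r = 0.95 (exact permutation p = 2.76e-06, the smallest that 9 arrays allow, adjusted p = 1.38e-05 over 5 pairs). Without the 2 arrays farthest from the median of Col6a1, r was 0.90, and r of the deviations within genotypes was 0.81. Col4a1 and Col4a2 gave r = 0.85 and rho = 0.75 (exact permutation p = 0.00853 and 0.0240, adjusted p = 0.0213 for r). Their r was 0.61 without the 2 farthest arrays and 0.79 within genotypes, and their RefSeq windows share 78 bases. Col1a1 and Col1a2 gave r = 0.76 and rho = 0.67 (exact permutation p = 0.0201 and 0.0589, adjusted p = 0.0251 for r), with r = 0.85 without the 2 farthest arrays and 0.43 within genotypes. Col4a5 and Col4a6 gave r = 0.76 and rho = 0.83 (exact permutation p = 0.0171 and 0.0083, adjusted p = 0.0251 for r), with 0.71 and 0.37 in the same checks. Col4a3 and Col4a4 gave r = 0.65 and rho = 0.58 (exact permutation p = 0.0582 and 0.108), which rested on knockout 1 and wild type 1, since r was -0.12 without them, while r within genotypes was 0.89. All pairs share arrays, and hence any difference between arrays that touches many genes. The exact p-values permute all 9 arrays without regard to genotype, so a shift between genotypes shared by both genes counts towards them. No p was computed for r within genotypes.

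**Figure D4:**
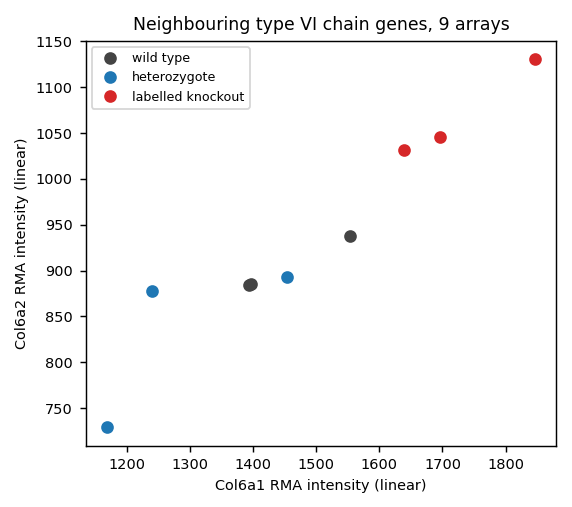
RMA intensity (linear) of Col6a2 against that of Col6a1, with 1 point per array coloured by genotype label; axes do not start at 0. The 9 arrays fall in the same rank order on both axes, and the 3 labelled knockouts lie at the upper right.

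Genes that make, process, bind and degrade collagen did not pass the adjusted threshold either. Between labelled knockout and heterozygote 0.0239% of all probe sets passed it. Of 19 genes for synthesis and modification, such as the hydroxylases of proline and lysine, 0 were called, and 1 lay higher in labelled knockouts than in heterozygotes at an unadjusted p under 0.05, where 7.71% of all probe sets lay higher and 6.57% lower. This gene, P3h3, a prolyl 3-hydroxylase family member, differed by 0.24 (SE 0.06), followed by the chaperone gene Fkbp10 at 0.11 and the lysyl hydroxylase gene Plod2 at -0.38. The median of the list was 0.02. Of 13 genes for procollagen cleavage and cross-linking, 0 were called, and 2 lay higher and 1 lower at an unadjusted p under 0.05. Pcolce, which enhances removal of the C-propeptide, stood at 0.37 (SE 0.10), the propeptide-cleaving protease gene Bmp1 at 0.28 (SE 0.08) and the cross-linking enzyme gene Lox at -0.26 (SE 0.11).

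Collagen receptors were measured by 9 of 10 listed genes, with 0 called (0.0239% of all probe sets). At an unadjusted p under 0.05, 2 lay higher in labelled knockouts than in heterozygotes (7.71% of all probe sets) and 1 lower (6.57%). Mrc2, an endocytic receptor that takes up collagen, stood 0.50 above heterozygotes (SE 0.08, adjusted p = 0.0809, limma) and 0.45 above wild type (SE 0.08, adjusted p = 0.0958). Ddr2, a tyrosine kinase receptor for fibrillar collagen, stood at 0.39 against heterozygotes (SE 0.07), and the integrin gene Itga2 at -0.99 (SE 0.32). Of 15 genes for collagen breakdown and its inhibitors, 0 were called and 9 lay higher in labelled knockouts than in heterozygotes at an unadjusted p under 0.05 (7.71% of all probe sets), with a median of 0.27. These included the inhibitor genes Timp3 at 0.42 (SE 0.10) and Timp2 at 0.45 (SE 0.12) and the membrane-type metalloproteinase gene Mmp16 at 0.49 (SE 0.13). Of 15 basement membrane partners, 0 were called and 10 lay higher at an unadjusted p under 0.05 (7.71% of all probe sets), with a median of 0.24, among them the laminin genes Lamc1 at 0.33 (SE 0.07) and Lamb2 at 0.32 (SE 0.09) and the perlecan gene Hspg2 at 0.36 (SE 0.09).

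In both comparisons with wild type, 0 genes of these lists were called. Of all probe sets, 0.0757% were called between labelled knockout and wild type and 0% between heterozygote and wild type. The medians between labelled knockout and wild type were -0.0094 for synthesis, 0.01 for cleavage and cross-linking, 0.03 for receptors, 0.18 for breakdown and 0.06 for basement membrane partners. P3h3 stood at 0.22, Pcolce at 0.31 and Timp2 at 0.31. Between heterozygote and wild type the medians were -0.0049, 0.0021, -0.0051, -0.11 and -0.15 in that order. Hspg2 stood at -0.33 (SE 0.09), Ddr2 at -0.23 (SE 0.07) and Creb3l1, a transcription factor gene of collagen-secreting cells, at -0.30 (SE 0.13). The adjusted p-values of the named genes in this last comparison were 0.815 or above (limma).

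Markers of several cell types lay higher in labelled knockouts than in heterozygotes, where 45.4% of all probe sets lay higher. None was called (0 in each list, against 0.0239% of all probe sets). Of 14 fibroblast stroma markers, 11 lay above heterozygotes in labelled knockouts. At an unadjusted p under 0.05, 8 lay higher and 1 lower (7.71% and 6.57% of all probe sets). The summed intensity of the list ran from 14264 to 15351 in wild type, from 12959 to 14355 in heterozygotes and from 15875 to 17504 in labelled knockouts. The labelled knockouts thus did not overlap the other genotypes. Lum, a proteoglycan that binds collagen fibrils, stood at 0.54, Dpt, another fibril-binding protein gene, at 0.75 and Dcn, the decorin gene, at 0.49 between labelled knockout and heterozygote. Of 14 endothelial markers 13 lay above heterozygotes, with sums from 5481 to 5915 in wild type, 4992 to 5340.5 in heterozygotes and 6065 to 6396 in labelled knockouts. Esam stood at 0.30, Kdr at 0.41 and Eng at 0.34. All 13 surface epithelium markers did so, with sums from 4394 to 5331 in wild type, 4649.7 to 4753 in heterozygotes and 6002 to 6628 in labelled knockouts, and Aldh1a2 stood at 0.75, Upk1b at 0.71 and Krt19 at 0.58. Above wild type in heterozygotes lay 4 of 14 fibroblast, 1 of 14 endothelial and 8 of 13 surface epithelium markers. Over all probe sets this share was 51.3%. No call of presence was made for these markers, and their part in the collagen differences was not tested.

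Fat and macrophage markers also read higher in labelled knockouts than in heterozygotes, where 45.4% of all probe sets lay higher. All 11 adipocyte markers lay above heterozygotes in labelled knockouts, with sums from 3077 to 3477 in wild type, 1753 to 2707.5 in heterozygotes and 3943 to 4368 in labelled knockouts. Car3, a carbonic anhydrase abundant in fat, stood at 1.55 (SE 0.21), Acsl1 at 0.45 and the adiponectin gene Adipoq at 1.10. Adipocytes are surrounded by a type VI collagen sheath, and the part of fat in the type VI values was not tested. All 12 macrophage markers lay above heterozygotes, with sums from 1598 to 1785 in wild type, 1514 to 1659 in heterozygotes and 1964 to 2801 in labelled knockouts, and Lyz2 stood at 1.01, C1qb at 0.68 and C1qa at 0.46. Of 12 smooth muscle and pericyte markers 9 lay above heterozygotes with a median of 0.07, of 10 theca and steroidogenic markers 9, of 8 oviduct markers 7, of 14 oocyte markers 10, of 13 granulosa markers 4 and of 8 skeletal muscle markers 2. Above wild type lay 3 of 14 oocyte markers in labelled knockouts (48.3% of all probe sets) and 0 of 14 in heterozygotes (51.3%). Of 13 granulosa markers 3 and 5 did so, in that order. Between labelled knockout and heterozygote, 5 granulosa markers lay lower and 1 higher at an unadjusted p under 0.05 (6.57% and 7.71%). Summed granulosa intensities ran from 38423 to 40027 in wild type, 38160 to 40419 in heterozygotes and 29989 to 40337 in labelled knockouts.

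Array by array, the mean deviation of the 3 type VI genes from their 9-array mean was 0.22 in each labelled knockout, with 0.05, -0.04 and -0.04 in wild type and -0.21, -0.10 and -0.33 in heterozygotes. For the 11 fibrillar genes it was 0.10, 0.0017 and 0.04 in labelled knockouts, 0.01, -0.02 and -0.04 in wild type and -0.04, -0.02 and -0.04 in heterozygotes. Knockout 2, the array whose Taf4b reading goes against its label, was thus level with knockouts 1 and 3 for type VI and lowest of the 3 for the fibrillar class. In other lists knockout 2 stood apart from knockouts 1 and 3. It read 0.68 for theca markers, against 0.02 and -0.07. For granulosa markers it read 0.16, against -0.17 and -0.44, and for oocyte markers -0.37, against 0.13 and 0.22. The fibroblast list stood at 0.15, 0.10 and 0.15 in labelled knockouts, 0.01, 0.03 and -0.05 in wild type and -0.0065, -0.19 and -0.20 in heterozygotes. The endothelial list stood at 0.17, 0.07 and 0.16, at 0.07, -0.05 and -0.06, and at -0.10, -0.08 and -0.18 in the same order of genotypes.

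**Figure D5:**
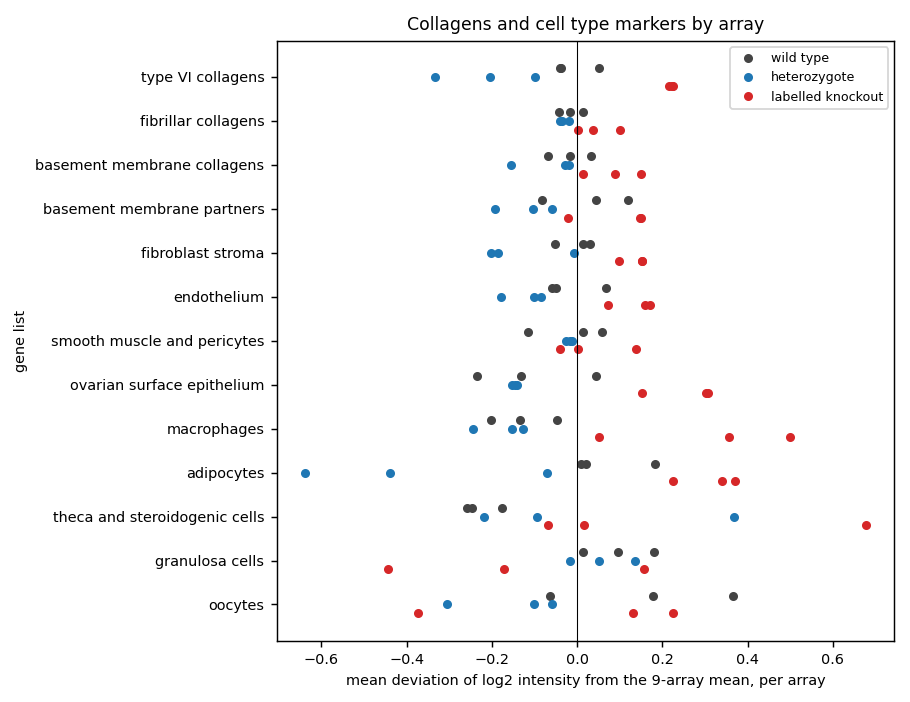
Mean deviation of log2 intensity from the 9-array mean for collagen classes and marker lists, with 1 point per array coloured by genotype label. The labelled knockouts lie to the right for type VI collagens (0.22 each) and for surface epithelium, adipocyte and endothelial markers, and heterozygotes lie to the left for type VI collagens (-0.33 to -0.10).

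In the authors' deposited tables, an unadjusted p under 0.05 was given to 10 collagen genes higher in knockout than in heterozygote (4.09% of probe sets with a p) and to 1 lower (3.61%). For knockout and wild type these counts were 5 higher (3.29%) and 0 lower (3.96%), and for heterozygote and wild type 0 higher (1.52%) and 3 lower (3.05%). After Benjamini-Hochberg adjustment of the authors' deposited p-values, 0 collagen genes passed between knockout and heterozygote (0.00399% of probe sets), 0 between knockout and wild type (0.012%) and 0 between heterozygote and wild type (0%).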

How the data were processed

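Ovarian RNA of 9 mice was hybridised to 1 array each, and mice were grouped by genotype as labelled. The authors produced the intensity values with RMA-Sketch in Expression Console 1.1, per the series' design, which corrects background, brings arrays to a common distribution and summarises probes into probe sets; the deposited intensities are linear, as their range shows. The authors' deposited tables also give, per the file headers, a ratio (fold change) of group means and an unadjusted p-value. Their intensities equal those of the value table. Log2 values were computed here from the deposited intensities. All 25100 probe sets with a gene symbol were fitted in 1 linear model over 9 arrays with limma 3.58.1 in R 4.3.3, with eBayes moderation and two-sided p-values adjusted by Benjamini-Hochberg at 0.05. The 3 genotypes share 1 estimate of the spread.

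Collagen genes were those whose symbol is Col, a number, a and a number, 1 probe set each. Every array is given for 10 fixed genes and, in each class, for the 3 genes with the smallest p in each comparison. Genes of the other lists are named from the 3 with the smallest p. All 3 are named between labelled knockout and heterozygote for the matrix lists and for fibroblast, endothelial, surface epithelium, fat and macrophage markers, and elsewhere only some. A gene among these is not reported here. Members and lists were chosen with earlier results of these data known. Older symbols of listed genes were matched to current ones with RefSeq genes of GRCm38.p6, used for names and neighbours. Promoter windows are RefSeq's, of the same build. The number of arrays limits the precision. Alternatives were fits of 6 arrays, quantile normalization, leaving out the dimmest 25% of probe sets or arrays, a replicate block and the authors' p-values. The procedure was tested on simulated data. No value column was left unmapped (0).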

Additional observations from a re-analysis of the deposited data

How the results depend on the processing

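In limma no collagen gene was called in any comparison with 9 arrays, with only the 6 arrays compared, after quantile normalization or with the replicate number as a block, nor by the authors' deposited p-values after adjustment (0 each). Between labelled knockout and heterozygote 1 gene was called with the dimmest 25% of probe sets left out (Col6a3, adjusted p = 0.0497), and 1 gene (Col5a1, adjusted p = 0.0478) without knockout 2 and heterozygote 1 together. Leaving out 1 array gave 0 to 1 genes there, the 1 being Col8a1 without knockout 2 (adjusted p = 0.0499), and 0 in the other comparisons. The median over 40 genes ran from 0.03 to 0.06 between labelled knockout and heterozygote, from 0.04 to 0.08 between labelled knockout and wild type, and from -0.02 to 0.02 between heterozygote and wild type when 1 array was left out. The 31 differences with an unadjusted p under 0.05 kept their sign under every alternative fit, and between 20 (without knockout 1) and 31 stayed under 0.05. They were picked by their p in these same arrays, so kept signs are no independent support. Several fits cannot change an estimate at all, such as those of only the 6 arrays compared or without the dimmest probe sets. Deviations of same-numbered arrays from their group means correlated at -0.19 to 0.33 over 9 pairs. With 3 arrays per group this cannot show whether the numbers pair the mice. With the replicate block 28 of the 31 differences stayed under 0.05. The medians of 0.06, 0.0058 and 0.04 cannot change with this block, because every genotype holds the same replicate numbers. Each gene has 1 probe set, so another probe set per gene could not be tried. Without 1 array, 6 of the 31 differences moved by over 1.5 times, in Col3a1, Col4a4, Col4a6, Col10a1 and Col28a1; Col10a1 between heterozygote and wild type went from 0.29 to 0.16 without heterozygote 3.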

Other observations

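Collagen genes that the deposited annotation lists under other symbols were measured too. Col6a6, a further type VI chain, has 2 probe sets under E330026B02Rik that did not read alike. The dimmer one read 244, 223 and 198 in wild type, 165, 197 and 175 in heterozygotes and 272, 218 and 252 in labelled knockouts, a log2 difference of 0.47 between labelled knockout and heterozygote (SE 0.11, adjusted p = 0.164, limma), while the brighter one differed by 0.14 (SE 0.12). Col6a4, listed as 1110001D15Rik, read 501, 500.1 and 424 in wild type, 438, 509 and 538 in heterozygotes and 600.1, 595 and 548 in labelled knockouts, which lay above all other arrays. It differed by 0.29 from wild type (SE 0.10, adjusted p = 0.321, limma) and by 0.23 from heterozygotes (SE 0.10, adjusted p = 0.321). Col26a1, listed as Emid2, read 519, 437 and 389 in wild type, 462, 445 and 408 in heterozygotes and 712, 462 and 555 in labelled knockouts, with differences of 0.35 and 0.37 (SE 0.16). The probe sets of Col6a5, listed as EG665033, differed by 0.09 and -0.12 between labelled knockout and heterozygote (SE 0.14 and 0.13). Between labelled knockout and wild type they differed by -0.19 and -0.03. Between heterozygote and wild type they differed by -0.27 and 0.09, and Col6a4 by 0.06.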
